A study of Danio rerio with 4 samples.

Results

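Potassium channel subunits were taken as all rows of the deposited gene table whose symbol begins with kcn and a further lower-case letter, which gave 112 of 32520 genes. They comprised 49 voltage-gated subunits, 10 accessory subunits, 25 inward rectifiers, 20 two-pore subunits and 8 calcium- or sodium-activated subunits, spread over 25 chromosomes, and 111 of the 112 were listed as protein coding. The RNA came from the brain of zebrafish (Danio rerio) of the genotype WT, in a study whose title concerns chronic exposure of adults and effects on photosensitivity and memory. The control received 0.1% dimethyl sulfoxide (DMSO), a solvent, and the other groups received the preservative ester butylparaben at 0.01, 0.1 or 1.0 mg/L. DMSO is named in the label of the control only. The sources used here give no sex, exact age, exposure time, sampling hour or pooling of animals. Each group held 1 library, so every difference below is between single libraries, no test between groups was possible, a trend over dose across the 4 libraries was not fitted, and intervals cover counting error only.

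Potassium channels let potassium leave or enter cells and so set the resting potential of neurons and glia and end each action potential. Voltage-gated subunits open on depolarization, inward rectifiers and two-pore channels carry current near rest, and calcium- or sodium-activated channels open after activity has raised those ions inside the cell. Accessory subunits do not form the pore but change the gating and the surface level of the subunits that do.

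Library totals ranged from 9750590 to 11099317 counts, of which mitochondrially encoded genes took 26.3% to 32.3%. Runs of 4 values below are always for the control and then 0.01, 0.1 and 1.0 mg/L. The family held 14806, 11919, 12989 and 12229 counts. Of the 112 members, 60 reached a mean of 1 CPM (a count relative to the library size after scaling by edgeR's TMM factors) over the 4 libraries, and 50 had at least 1 CPM in each of them. Pan-neuronal markers, which define the labelled tissue, summed to 9396, 10046, 10229 and 9434 CPM, with 0 of 17 kept markers past the size rule at any dose. Markers of oocytes and the egg coat stood apart in the control library, at 611 CPM against 14.2, 13.4 and 12.3 CPM, with all 18 kept markers past the size rule at every dose. Most of these 18 reached a mean of 1 CPM only through the control, so that count follows in large part from the filter. An example is zp2.1, at 91.2, 0.318, 0 and 0.0983 CPM. The part of the oocyte and egg coat markers in any channel difference from the control was not tested.

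Per gene length (TPM, the length-corrected abundance that the authors computed), few subunits carried most of the family's RNA. The 10 most abundant rows held 69.2% of the summed mean TPM, while 61 members averaged under 1 TPM and 6 had no count in any library. The highest was kcnip1b, a calcium-binding partner of the kcnd channels, at 123, 88.1, 109 and 87.3 TPM. Next among undisputed rows came kcnma1a, the large-conductance calcium-activated channel, at 50.5, 49.2, 60.1 and 76.2 TPM. The small-conductance channel kcnn1a had 36.6, 32.5, 42.6 and 37.3 TPM, and the G protein-gated inward rectifier kcnj3b had 35.4, 34.3, 35.1 and 29.2 TPM. These neighbours overlapped across libraries, so the order of kcnn1a and kcnj3b is not separable from the spread between the 4 libraries.

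One row needs care. Of the rows with the symbol kcnj11l, the one with the identifier ENSDARG00000089255 (52.0 to 76.5 TPM) is called cd59b, a complement regulator, in the reference name table, and only 111 of the 112 identifiers carry a kcn symbol there. Inward rectifiers held 155.6 TPM of the control with that row and 79.2 TPM without it. It is left out of the inward rectifier sums below.

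**Figure D1:**
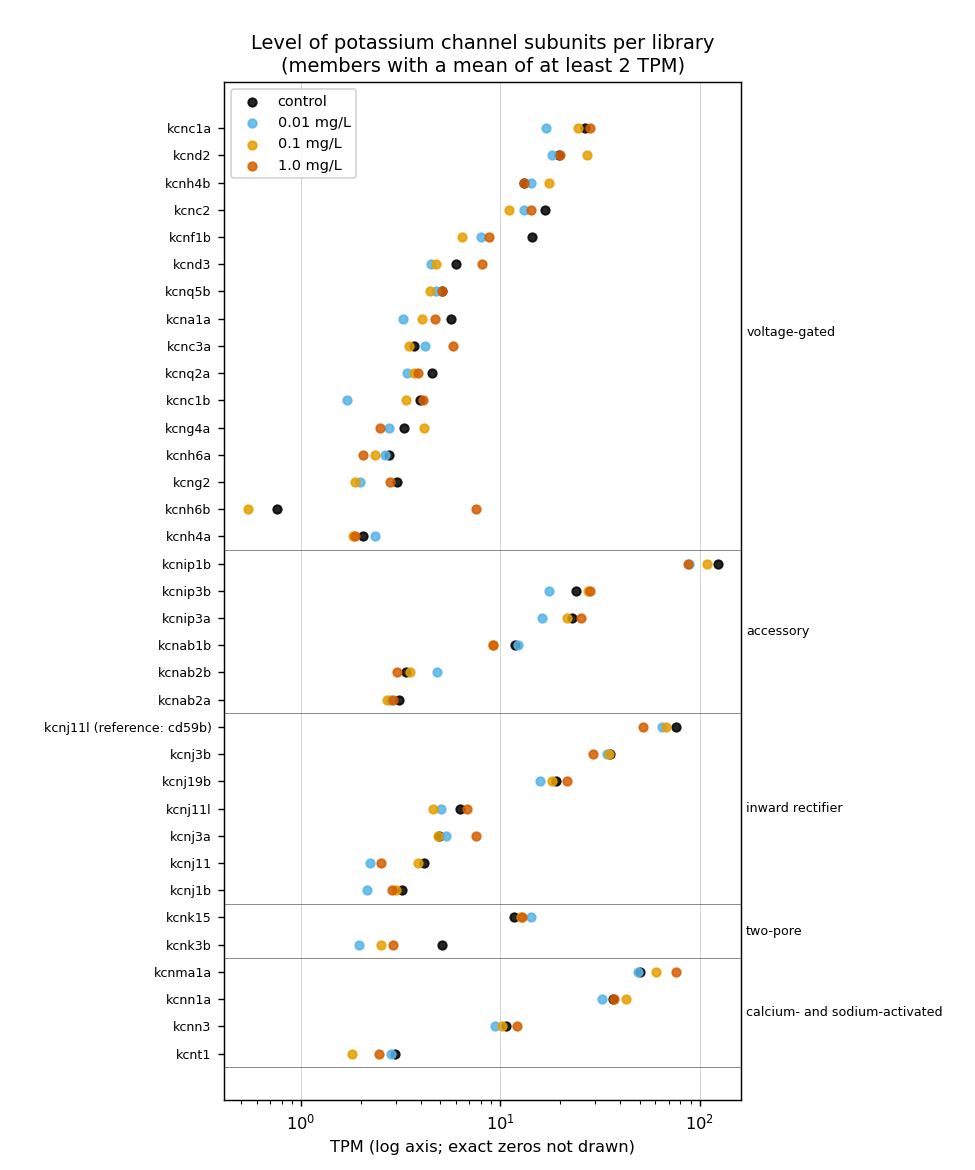
TPM per library (log axis) for members with a mean of at least 2 TPM and at least 1 CPM, grouped by class, with 1 point for each of the 4 libraries and values of 0 not drawn. Points of most members lie close together, while kcnh6b stands at 7.57 TPM at 1.0 mg/L against 0.76 TPM in the control.

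Summed over a class, the highest library exceeded the lowest by 1.09-fold (voltage-gated) to 1.32-fold (accessory). Voltage-gated subunits summed to 482 CPM in the control (95% Poisson interval 470 to 495) against 444, 467 and 444 CPM with rising dose. Accessory subunits had 250 CPM (240 to 259) without butylparaben and 218, 221 and 189 CPM with it, and inward rectifiers 201 CPM (193 to 210) against 213, 188 and 175 CPM. Two-pore subunits summed to 39.1, 38.5, 38.4 and 34.1 CPM, and their intervals overlapped in all libraries. Calcium- and sodium-activated channels had 312 CPM in the control (301 to 322) against 314, 342 and 337 CPM, and the interval at 0.01 mg/L (303 to 325) overlapped that of the control. Between the control and 1.0 mg/L, kcnma1a went from 73.4 to 102 CPM and the sum of the kcnn genes from 230 to 227 CPM. In bulk tissue, fewer cells of a type and less RNA per cell cannot be told apart.

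**Figure D2:**
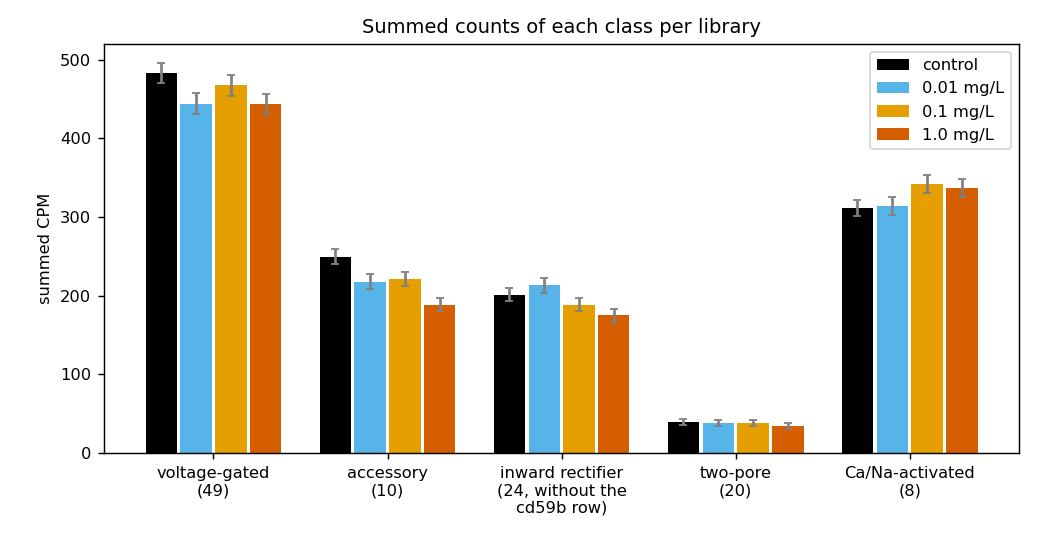
Summed CPM of each class (number of rows below its name) in the 4 libraries, with exact 95% Poisson intervals that cover counting error only. The accessory bars run from 250 CPM in the control to 189 CPM at 1.0 mg/L, and the calcium- and sodium-activated bars from 312 to 337 CPM.

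Each dose was set against the control gene by gene. The size rule used to call a member required a log2 ratio of CPM + 0.5 of at least 1 in size and an exact 95% Clopper-Pearson interval of the ratio that excluded 1. The added 0.5 CPM makes ratios of weakly expressed genes look smaller than they are. At 0.01 mg/L, 5 of 60 kept members were lower and 1 was higher, beside 2.4% and 2.17% of all 16524 kept genes. At 0.1 mg/L, 6 were lower and 1 was higher, beside 2.95% and 2.43% of all genes. At 1.0 mg/L, 4 were lower and 1 was higher, beside 2.74% and 2.67%. So 8.33%, 10% and 6.67% of members were lower at the rising doses. The share that was higher, 1.67% at each dose, is 1 member of 60 and cannot be set apart from the share of all genes. The members called higher at 0.1 mg/L (kcnk5a) and 1.0 mg/L (kcnh6b) passed the filter only through the library of that call. The 3 comparisons share 1 control library. Of the 14 members called at any dose, 13 averaged under 5 CPM, where single counts weigh most. The shares of all genes are not matched to the members for level. At 5 CPM or more, only 87, 110 and 123 of 11257 genes were lower at the rising doses, while 33 of the 60 members lay under 5 CPM. With 2 CPM added in place of 0.5, the members called lower numbered 1, 1 and 0.

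The median log2 ratio of the kept members was -0.17, -0.23 and -0.17 at the rising doses, where the median of all kept genes was -0.01, 0.00 and 0.00. Members between 1 and 5 CPM had medians of -0.34, -0.35 and -0.22, against -0.03, -0.10 and 0.00 for all genes of that level. The 27 members at 5 CPM or more had medians of -0.02, -0.15 and -0.08, against -0.01, 0.03 and 0.00. The well-counted members therefore lay near the other genes at 0.01 mg/L. The control was the highest of the 4 libraries for 28 of 60 members, beside 27.6% of all genes, and the lowest for 3 (kcnj5, kcnj19a and kcnk15), beside 27.1%. The 28 include the row that the reference calls cd59b.

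**Figure D3:**
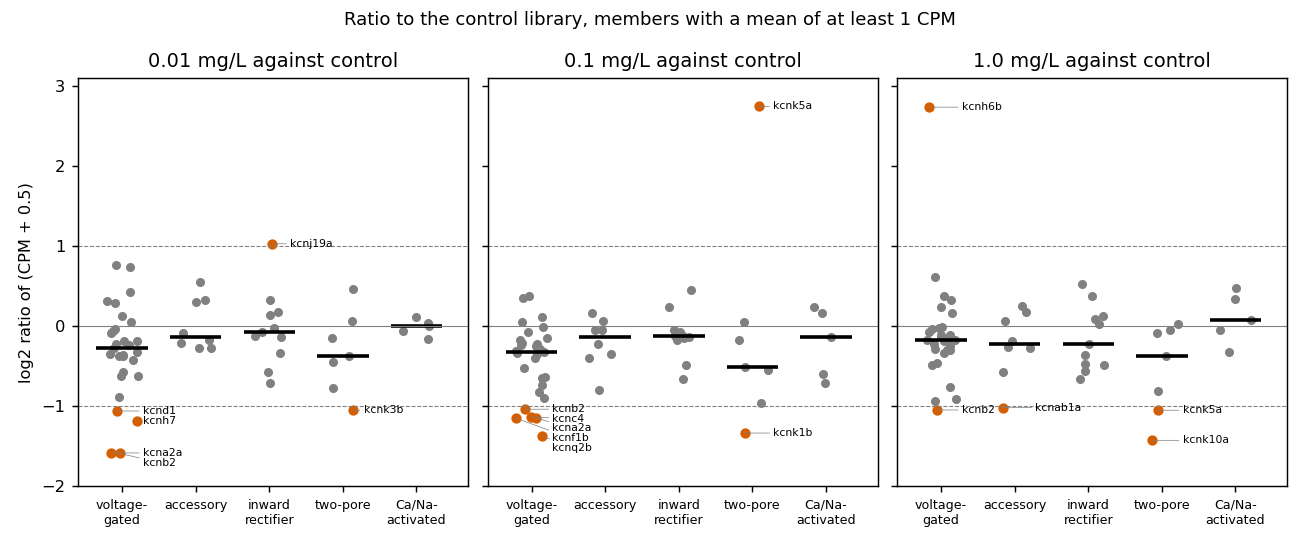
Log2 ratio of each dose to the control for the 60 kept members by class; black bars are class medians, dashed lines mark 2-fold, and orange points are members past the size rule. The voltage-gated medians are -0.27, -0.33 and -0.17 at the rising doses. Two-pore medians are lower, at -0.38, -0.51 and -0.37 over 7 members, and accessory and inward rectifier medians are also negative at each dose. The points of kcnk5a at 0.1 mg/L and kcnh6b at 1.0 mg/L lie far above the rest.

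Among the voltage-gated pore subunits, 29 were kept, and 4, 5 and 1 of them were lower at the rising doses while 0, 0 and 1 were higher. Counting intervals excluded 1 on the lower side, at any size, for 8, 12 and 6 of the 29 (27.6%, 41.4% and 20.7%), beside 15.3%, 16.8% and 18.7% of all genes. On the higher side they did so for 3, 2 and 3 of the 29 (10.3%, 6.9% and 10.3%), beside 14.3%, 19.2% and 18.7%. Lower-side intervals also excluded 1 for 1, 2 and 3 of 7 two-pore and 1, 3 and 2 of 8 accessory members. For inward rectifiers, with the cd59b row, the counts were 0, 1 and 2 of 11. For calcium- and sodium-activated channels they were 0, 1 and 0 of 5. The delayed rectifier kcnb2 belongs to a family that shapes repetitive firing. This gene (ENSDARG00000038862, GRCz11, chromosome 2, 30144979 to 30177469, + strand) was the only member called lower at every dose. Its counts were 47, 10, 18 and 18, or 4.19, 1.06, 1.79 and 1.77 CPM. All 3 doses lay below the control, and the control exceeded 0.01 mg/L by 3.95-fold (interval 1.97 to 8.78). In TPM, however, kcnb2 had 1.04, 0.23, 1.05 and 0.47, so the authors' counts and TPM give different directions at 0.1 mg/L. With either TPM or 2 CPM added, kcnb2 was called at 0.01 mg/L only. A nearby gene on the same strand, rdh10b (4961 bases away), was also highest in the control, with 123, 55, 58 and 49 counts. The nearest gene, rpl7 (6 bases away on the other strand), had 4285, 3337, 4362 and 3763 counts and did not share the pattern. On the other side of kcnb2, dnajb6a (28511 bases away, same strand) had 338, 243, 216 and 288 counts, highest in the control. There trpa1a, on the opposite strand, had 2, 3, 3 and 2 counts. Their part in the kcnb2 values was not tested. A further row that the reference names KCNB2, outside the symbol rule and under the filter, had 6, 10, 1 and 8 counts.

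The axonal channel gene kcna2a (chromosome 6, 49412754 to 49414235), whose family limits the excitability of axons, had 29, 5, 9 and 23 counts. It was 4.88-fold lower at 0.01 mg/L (interval 1.87 to 16.1) and 2.89-fold lower at 0.1 mg/L, while 1.0 mg/L was close to the control. Its more abundant relative kcna1a was lower without reaching 2-fold, with 15.9, 10.5, 10.9 and 12.5 CPM. All 5 kept kcna genes had a negative log2 ratio at 0.1 mg/L, with a median of -0.52, though kcna4 was near the control (16 against 18 counts). Of all 60 kept members 48 were negative at that dose, beside 49.6% of all kept genes. At 0.01 and at 1.0 mg/L 4 of the 5 kcna genes were negative.

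Fast-spiking neurons depend on the kcnc channels. Of these, kcnc1a had the highest mean TPM of the voltage-gated genes, though kcnd2 exceeded it at 0.01 mg/L (18.2 against 16.9 TPM) and at 0.1 mg/L (27.1 against 24.4 TPM). It had counts of 1500, 942, 1169 and 1294, or 134, 99.7, 116 and 127 CPM. Its log2 ratio to the control ran from -0.42 (0.01 mg/L) to -0.07 (1.0 mg/L), so the lowest dose lay furthest from the control. The related kcnc4 had 14, 8, 3 and 18 counts and was called lower at 0.1 mg/L; it passed the filter on low values only with both the control and the 1.0 mg/L library included. In the other direction, kcnc3a had 5.88, 7.41, 5.26 and 9.24 CPM, and the interval of its ratio at 1.0 mg/L was 1.14 to 2.19.

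The kcnd genes code for channels of the fast A-type current in dendrites. The gene kcnd1 had 63, 23, 28 and 28 counts and was 2.305-fold lower at 0.01 mg/L (interval 1.41 to 3.89). At 0.1 and 1.0 mg/L it was 2.02-fold and 2.04-fold lower, with intervals that excluded 1. The added 0.5 CPM kept these ratios just short of the size rule. Its abundant relative kcnd2 went the other way at 0.1 mg/L, with 95.7, 99.6, 125 and 88.6 CPM. The ratio of kcnd2 at 0.1 mg/L was 1.31 (interval 1.203 to 1.42), the highest log2 ratio at that dose among the 12 voltage-gated genes at 5 CPM or more. The third member, kcnd3, had 15.1, 12.9, 11.4 and 19.2 CPM and so lay on both sides of the control.

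Subunits of the kcnf, kcng, kcns and kcnv groups do not form channels alone but join kcnb subunits and alter them. Of these, kcnf1b (chromosome 13, 32993911 to 32995365) was the best counted of all 14 called members, with 165, 89, 64 and 86 counts. It was 2.32-fold lower at 0.1 mg/L (interval 1.73 to 3.14), and the intervals at 0.01 and 1.0 mg/L also excluded 1 at 1.56-fold and 1.74-fold lower. It had the lowest ratio at each of the 3 doses among voltage-gated genes at 5 CPM or more. The kcng gene with the highest mean TPM, kcng4a, had 5.08, 4.87, 5.55 and 4.03 CPM, and its counting intervals did not separate the doses from the control. Both kcns genes and both kcnv genes had at most 7 counts in any library.

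The kcnh group holds the ether-a-go-go channels, of which kcnh2, kcnh6 and kcnh7 are the erg type that repolarizes neurons and heart muscle. The gene kcnh6b (ENSDARG00000010296, chromosome 12, 9320446 to 9347327, + strand) had 3, 0, 3 and 47 counts. The library at 1.0 mg/L thus stood alone, at 4.62 CPM against 0.267 CPM in the control, a ratio of 17.3 (interval 5.57 to 86.9). Its value was 14.6-fold above the floor of 3 counts at 0.01 mg/L. The gene passed the filter on low values through the 1.0 mg/L library alone. The authors' deposited table lists a log2 fold change of 4.11 for it at this dose. The nearest gene upstream, taco1, had 63, 76, 21 and 67 counts and did not share the pattern.

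Markers of the pineal gland and photoreceptors were also high in the 1.0 mg/L library. There, 7 of the 10 kept markers were called higher and 0 lower, but 4 of the 7 (asmt, cnga3a, gnat1 and gngt1) passed the filter through that library alone. Examples are exorh, the pineal opsin, at 16.1, 12.2, 6.25 and 37.4 CPM and gnat1 at 4, 1, 3 and 117 counts. At 0.1 mg/L, where kcnh6b had the same 3 counts as the control, 3 of the 10 (arr3a, exorh and gngt1) were called lower. The 25 marker rows summed to 313, 274, 251 and 350 CPM, of which gnb1a, also expressed elsewhere in the brain, held 281, 251, 233 and 248 CPM. Markers under the filter went both ways. Highest at 1.0 mg/L were, for example, crx (0, 0, 1 and 16 counts), saga (2, 2, 1 and 18) and pde6b (6, 5, 1 and 28). The opsins rho (5, 1, 0 and 0 counts) and opn1lw1 (1, 0, 0 and 0) were near the floor in all libraries and highest in the control. The part of these markers in the kcnh6b value was not tested. The gene kcnv2a, known from photoreceptors, had 2, 3, 1 and 1 counts, and kcnv2b had 0 in all libraries.

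Elsewhere in the group, kcnh7 had 61, 20, 31 and 50 counts and was 2.57-fold lower at 0.01 mg/L (interval 1.53 to 4.49). The most abundant gene of the group, kcnh4b, had 83.5, 102.3, 107 and 77.6 CPM, higher than the control at both lower doses and lower at 1.0 mg/L. Of the kcnq genes, which carry the M-current that restrains repeated firing, kcnq2b had counts of 58, 37, 17 and 25. It was 3.06-fold lower at 0.1 mg/L (interval 1.76 to 5.61), and the interval at 1.0 mg/L also excluded 1 on the lower side. All 4 kept kcnq genes had negative log2 ratios at every dose, while the most abundant one, kcnq5b, stayed between 11.8 and 12.5 CPM. Of all 60 kept members 41, 48 and 42 had negative ratios at the rising doses.

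**Figure D4:**
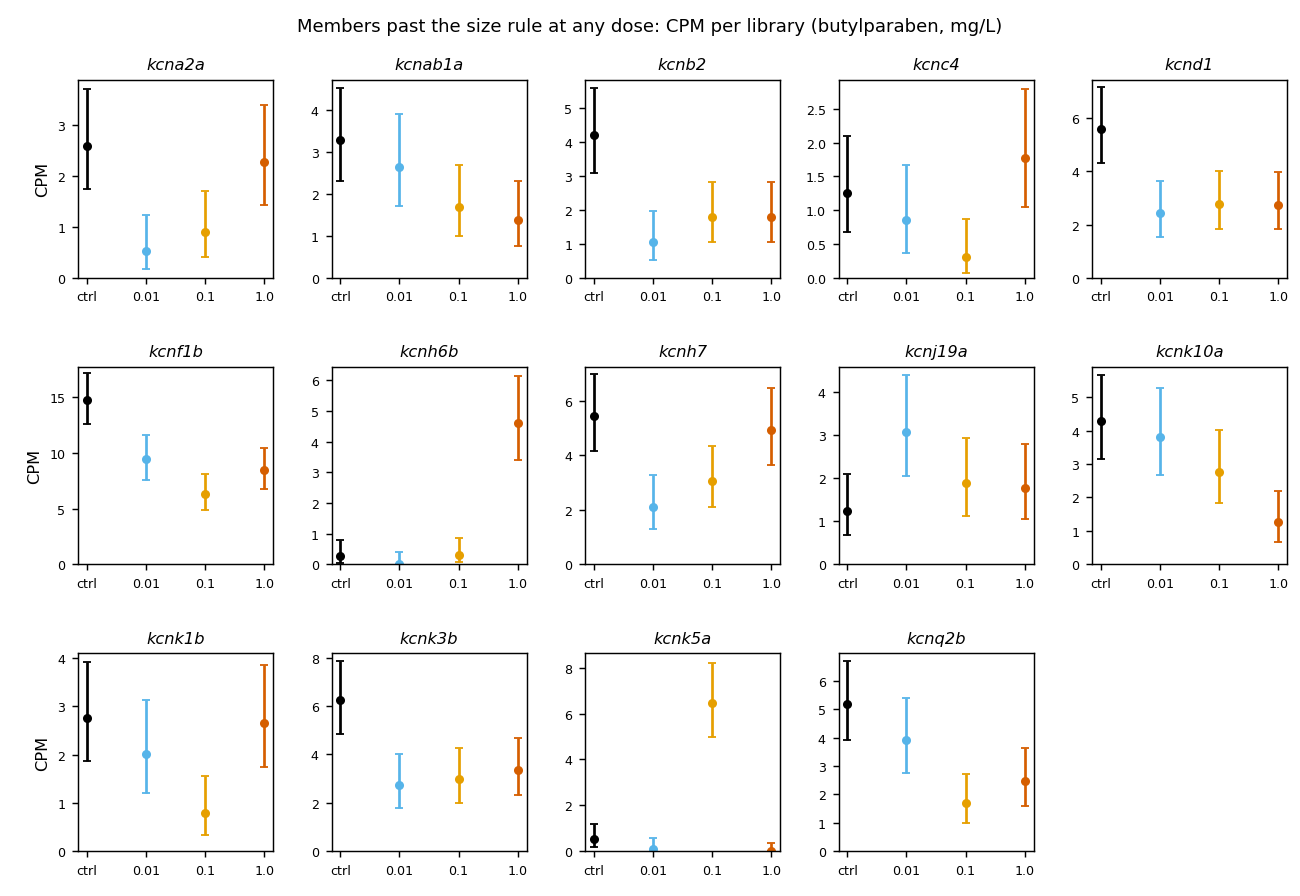
CPM in each library for the 14 members past the size rule at any dose, with exact 95% Poisson intervals that cover counting error only. The axes differ between panels; kcnk5a reaches 6.45 CPM at 0.1 mg/L only, and kcnab1a and kcnk10a step down with dose from 3.30 to 1.38 CPM and from 4.28 to 1.28 CPM.

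Of 10 accessory subunits 8 were kept, and 1 was called, at 1.0 mg/L. The potassium channel interacting gene kcnip1b had counts of 2077, 1445, 1598 and 1266, or 185, 153, 158 and 124 CPM. All 3 doses lay below the control, and the control exceeded 1.0 mg/L by 1.49-fold, with an interval of the dose-to-control ratio of 0.627 to 0.722. Its relatives kcnip3a and kcnip3b, calcium sensors that also act on transcription in mammals, had 19.1, 16.8, 20.03 and 22.9 CPM and 18.6, 16.1, 21.03 and 19.6 CPM. These lay on both sides of the control, and kcnip1b alone held most of the accessory sum.

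The beta subunits of the kcna channels are encoded by the kcnab genes. The one called, kcnab1a (chromosome 18, 34362608 to 34536067), had 37, 25, 17 and 14 counts, a strict order by dose. At 1.0 mg/L it was 2.39-fold lower (interval 1.26 to 4.79). Its more abundant copy kcnab1b had 14.8, 18.3, 11.5 and 12.2 CPM, and kcnab2b had 4.10, 6.25, 3.97 and 3.34 CPM, both highest at 0.01 mg/L. The only kcne gene, kcne4, had 15, 17, 9 and 16 counts.

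Among the inward rectifiers, 11 of 25 were kept, none was called lower at any dose and 1 was called higher. That gene, kcnj19a (chromosome 3, 38793499 to 38859305), had 14, 29, 19 and 18 counts. The 0.01 mg/L library exceeded the control by 2.46-fold (interval 1.26 to 5.04), a call that was lost with library totals as the scale, after thinning to equal totals, in TPM and with 2 CPM added. The G protein-gated subunit kcnj3b, which slows firing when inhibitory receptors are active, had 1470, 1367, 1252 and 1033 counts, or 131, 145, 124 and 101.6 CPM. At 1.0 mg/L kcnj3b had a log2 ratio of -0.36, while its copy kcnj3a had 0.53, at 8.95 CPM against 6.06 CPM in the control. Its partner subunit kcnj5 had 36, 35, 39 and 36 counts.

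Metabolically gated channels are built from kcnj11-type subunits and sulfonylurea receptors. The gene kcnj11 had 38, 20, 31 and 20 counts, and the kcnj11l row that the reference also calls kcnj11l had 8.64, 7.94, 6.05 and 8.85 CPM. The receptor genes abcc8 (82.1, 90.3, 92.03 and 77.2 CPM) and abcc9 (17.2, 16.6, 15.4 and 21.7 CPM) lay on both sides of the control. The glial potassium buffer gene kcnj10a had 19, 8, 9 and 10 counts, and it passed the filter only with the control included. Astroglial markers lay on the same side, with medians of -0.26, -0.21 and -0.07 over 10 kept genes, 8, 9 and 8 of which had a negative ratio, while slc1a3b was called higher at 1.0 mg/L (17.01 against 8.19 CPM). They summed to 5036, 4294, 4263 and 4507 CPM, and the water channel aqp4 had 1 count in the control and 0 at every dose; their part in the kcnj10a values was not tested. The 6 kidney-type kcnj1a rows, a cluster of near copies on chromosome 18, had at most 2 counts in any library, and counts are uncertain between such copies.

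The two-pore channels are the leak channels of neurons. Of 20 members 7 were kept, and 1, 1 and 2 were lower at the rising doses while 0, 1 and 0 were higher. The gene kcnk5a (ENSDARG00000023587, chromosome 17, 48683769 to 48705993, - strand), whose mammalian counterpart opens at alkaline pH, had 6, 1, 65 and 0 counts. At 0.1 mg/L it stood at 6.45 CPM against 0.534 CPM in the control, a ratio of 12.1 (interval 5.25 to 34.1). It was 21.9-fold above the floor of 3 counts at 1.0 mg/L. It passed the filter on low values through the 0.1 mg/L library alone. It was also called lower at 1.0 mg/L, on 0 counts against 6 in the control, and is the only member called in both directions. The interval of that dose-to-control ratio reached 0.938, close to 1. Against the floor of 3 counts the control was 1.81-fold higher, and in TPM the control had 0.35 and 1.0 mg/L had 0.

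The gene next to it on the same strand, kcnk17 (48736160 to 48743076, 30166 bases away), belongs to the same alkaline-activated group in mammals. It had 2, 0, 13 and 7 counts, so it too was highest at 0.1 mg/L, but it was under the filter. The following gene, kif6, had 15, 21, 18 and 36 counts and was highest at 1.0 mg/L. The paralog kcnk5b, which controls fin growth in zebrafish, had 3, 2, 1 and 12 counts on chromosome 20 and was highest at 1.0 mg/L.

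The acid-sensitive leak channel kcnk3b (chromosome 17, 45454943 to 45459207) had 70, 26, 30 and 34 counts. All doses lay below the control, by 2.27-fold at 0.01 mg/L (interval 1.43 to 3.70) and by 2.096-fold and 1.86-fold at the higher doses. The mechanically gated kcnk10a (chromosome 20, 10166297 to 10220280) had 48, 36, 28 and 13 counts, strictly lower at each step of dose, and was 3.34-fold lower at 1.0 mg/L (interval 1.78 to 6.73). The weak rectifier kcnk1b had 31, 19, 8 and 27 counts and was 3.48-fold lower at 0.1 mg/L only (interval 1.56 to 8.76). By contrast, the most abundant gene of the class, kcnk15, had 12.7, 17.8, 13.3 and 12.98 CPM and was the highest at 0.01 mg/L.

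Among the calcium- and sodium-activated channels, 0 of 5 kept members were called and the control was the highest library for 0 of them. The large-conductance gene kcnma1a had 824, 663, 872 and 1038 counts, or 73.4, 70.2, 86.5 and 102.1 CPM. At 1.0 mg/L its ratio was 1.39 (interval 1.27 to 1.53), and at 0.1 mg/L 1.18 (interval 1.07 to 1.298). A list chosen for Purkinje cells also had its highest sum at 1.0 mg/L, with 2362, 2549, 2570 and 3145 CPM over 14 rows. In that list zic1, a gene not particular to Purkinje cells, held 835, 984, 1122 and 1441 CPM. Of 13 kept markers 8, 7 and 9 lay above the control, with medians of 0.09, 0.06 and 0.26. At 1.0 mg/L 4 lay below it, among them rorab (68.7 against 109 CPM) and pcp4a (204 against 273 CPM). Of the 13 markers 1, aldoca, was called, lower at 0.01 mg/L. Their part in the kcnma1a and kcnc3a values was not tested. The small-conductance genes kcnn1a (192, 198, 217 and 187 CPM) and kcnn3 (34.5, 34.6, 31.3 and 36.5 CPM) varied by less. The sodium-activated kcnt1 had 7.75, 8.47, 4.56 and 6.10 CPM and was 1.70-fold lower at 0.1 mg/L. Kept rows outside the symbol rule that the reference names as kcnt genes were highest in the control. These were si:dkey-21e5.1, with 211, 151, 163 and 145 counts, and CR392045.1, with 27, 13, 10 and 23 counts. Under the filter, CABZ01092907.1, which the reference names KCNMA1, had 14, 6, 14 and 7 counts. Unlike kcnma1a it was lower at 1.0 mg/L than in the control. No difference between classes was tested.

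Only 2 members were both ordered by dose and past the size rule at 1.0 mg/L, kcnab1a and kcnk10a, both downward, beside 0.878% of all kept genes. No member met the rule upward, beside 0.72% of all genes. At any size, 5 of 60 members (8.33%) stepped down with dose, beside 5.82%, and 0 stepped up, beside 6.09%. The 5 include the row that the reference calls cd59b, at 34.6, 34.1, 31.1 and 24.8 CPM, which may not be a channel gene.

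Zebrafish keep many genes as a and b copies from a genome duplication in the ancestors of teleost fish, the group that holds zebrafish. Of 28 such pairs among the members, 14 had both copies kept. The copies differed at least 5-fold in mean TPM in 7 pairs and under 2-fold in 5. The a copy was the higher in all libraries in 5 pairs and the b copy in 7, so the dominant copy differed between libraries in only 2. In kcnn1 the a copy held 98.9% to 99.6% of the counts of the pair, in kcnc1 95.9% to 97.3%, and in kcnip3 48.8% to 53.9%. These shares do not depend on the library scaling.

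The a to b ratio of a pair was called moved when it differed from the control by at least 2-fold and the exact conditional interval of the odds ratio excluded 1. Among the 14 pairs 2, 1 and 1 moved at the rising doses, beside 7.39%, 9.18% and 9.49% of all 1285 pairs. At 0.01 mg/L the share of kcna2a was 21.7% against 50.9% in the control, and kcna2b had 28, 18, 12 and 17 counts. In the same library kcnj19a held 7.97% against 3.24%, while kcnj19b had 418, 335, 344 and 404 counts. At 0.1 mg/L kcnq2a held 82.1% against 65.7%, with 111, 79, 78 and 81 counts. At 1.0 mg/L kcnh6a held 62.4% against 97.6%, and kcnh6a itself had 123, 114, 90 and 78 counts. Counts of close copies can trade reads, so each such pair is uncertain between its members.

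**Figure D5:**
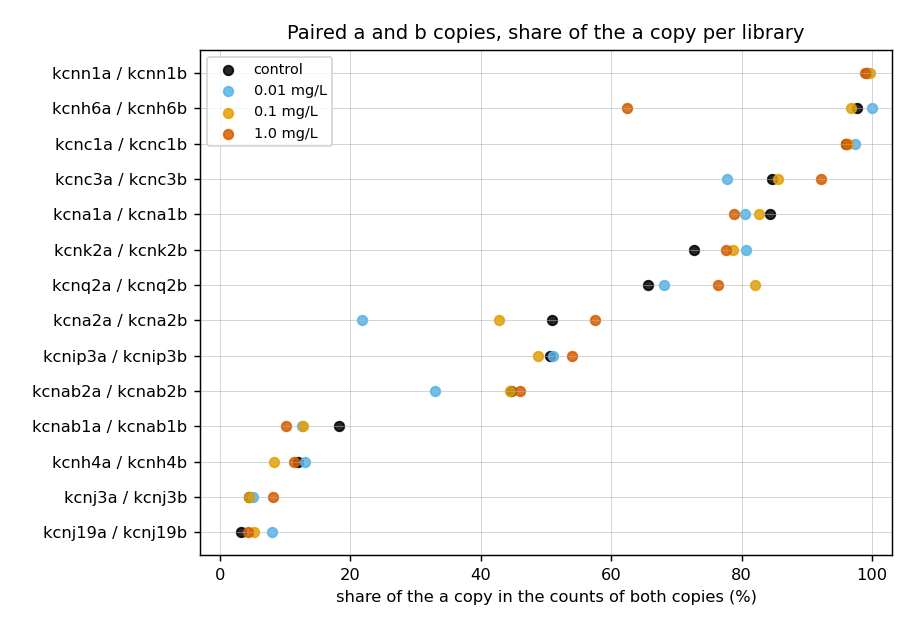
Share of the a copy in the summed counts of both copies for 14 pairs, with 1 point per library. The share of kcnh6a is 62.4% at 1.0 mg/L against 97.6% in the control, and that of kcna2a is 21.7% at 0.01 mg/L against 50.9%.

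Genes that work with these channels were described from lists chosen by function. Over all kept genes 2.17% to 2.95% were called per dose and direction, and beside these shares a single call in a short list is no result about the list. Of 23 kept partner genes 0, 1 and 0 were called, the one being lgi1b, a secreted partner of the kcna complex, at 6.24, 4.45, 2.08 and 3.25 CPM. Of 17 kept pumps and cotransporters 0, 1 and 1 were lower. That gene was slc12a5b, a copy of the neuronal potassium-chloride exporter on which inhibition by GABA depends, at 28.5, 23.1, 12.3 and 11.9 CPM. The less abundant copy slc12a5a had 4.19, 2.43, 2.48 and 3.74 CPM and was not called at any dose. Of 13 kept genes acting on G protein-gated rectifiers, rgs6 alone was called, higher at 0.01 mg/L, at 3.38, 8.15, 2.78 and 6.49 CPM. None of 3 kept hcn genes and none of 9 kept voltage-gated sodium channel genes was called. The sodium channel list had medians of 0.14, 0.19 and 0.28, on the other side of the control from the medians of the voltage-gated potassium channels. Its 9 genes were split, with 5, 6 and 6 above the control and 4, 3 and 3 below. One of its pore genes, scn8aa, had 164, 153, 176 and 210 CPM, while scn2b had 11.3, 9.85, 5.65 and 6.79 CPM. Both were chosen after their values were seen.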

How the data were processed

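Per the labels' protocols, libraries made with a stranded mRNA kit were read as 151 bp paired ends. Per the submitters' processing notes, cutadapt 2.8, STAR 2.7.1a and RSEM 1.3.1 were used with GRCz11. The authors deposited, per gene and library, expected counts (estimated counts as whole numbers), TPM and RPKM; the 4 RPKM columns were not used. The authors' deposited table also holds log2 fold changes, whose scaling is not given in the sources used here.

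Counts were scaled with TMM factors (edgeR 4.0.16, R 4.3.3), from 0.931 to 1.04. The 16524 genes that averaged 1 CPM or more were kept. The size rule is given with the results. The floor for 0 counts was 3 counts, 0.267 to 0.318 CPM. Scripts used Python 3.11.15 and scipy 1.17.1, and were tested on simulated data. Identifiers were looked up in a reference name table, which held all 112. Named genes were those called, the most abundant of each subfamily, the extremes of each class at 5 CPM or more, moved pairs and called list genes; others were chosen after their values were seen. Members and lists were chosen with earlier results of these data known. In all, 10 other settings, 1 of them for pairs only, and 2 chosen after seeing the data were tried. Protein and promoter sequences were not used here.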

Additional observations from a re-analysis of the deposited data

How the results depend on the processing

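With 1 library per group no library could be left out, and no paired analysis was possible because each group holds 1 library. TMM, DESeq2 (1.42.0) size factors and library totals gave the median of the 60 members between -0.13 and -0.26 at all doses; library totals moved the median of all genes to -0.12 at 0.01 mg/L, and the authors' TPM to -0.19, where the members had -0.32. With library totals, 0 members were higher at 0.01 mg/L and 1 was ordered downward. With no filter, 3 were higher at 0.1 mg/L and 2 at 1.0 mg/L, and 2 pairs moved at each of these doses. With a mean of at least 5 CPM, 0 members were higher at any dose, 0, 1 and 0 were lower at the rising doses, 0 were ordered downward, 0 pairs moved, and the median at 0.01 mg/L was -0.023. With 2 CPM added, 0 were higher at 0.01 mg/L, 1, 1 and 0 were lower, and 0 were ordered downward. After thinning to equal totals, 0 were higher at 0.01 mg/L and 2 pairs moved at 1.0 mg/L. Without mitochondrially encoded genes 2 were higher at 0.1 mg/L. In TPM, 0 were higher at 0.01 mg/L, 1 was lower at 1.0 mg/L, 1 was ordered downward, 0 pairs moved at 0.1 mg/L, and kcnb2 turned to 0.0093 on the log2 scale at 0.1 mg/L. A size of 1.5-fold gave 2 moved pairs at 1.0 mg/L. With 18 further rows added, an alternative chosen after seeing the data, 2 were higher at 0.1 mg/L. Leaving out the cd59b row changed no count of called members or moved pairs. That row is, however, among the 28 members with the control highest and the 5 that stepped down with dose at any size. The higher calls of kcnk5a at 0.1 mg/L and kcnh6b at 1.0 mg/L held under every setting tried for single genes except the filter of 5 CPM, which removed both genes. Both genes passed the filter only through the library of that call, and every setting reuses the same single libraries. Holding under these settings therefore says nothing on whether the values would recur in another library. The cause of the changes between settings was not tested beyond what each setting leaves out, and depth limits all members under 5 CPM.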

Other observations

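A further 18 rows carry a kcn symbol in the reference name table but not in the deposited symbol column in lower case, and 10 of them were kept. Among them KCNIP4, a kcnd partner, had 28, 36, 61 and 54 counts and was called higher at 0.1 mg/L. A kcnj10 gene listed under a clone name (FO704813.1), of the glial type, had 71, 35, 35 and 54 counts, or 6.32, 3.71, 3.47 and 5.31 CPM. The part of the astroglial markers in these values was not tested. The G protein-gated KCNJ6 had 15.7, 14.3, 15.7 and 19.2 CPM. The modifier subunit KCNV1 had 17, 4, 12 and 11 counts and was called lower at 0.01 mg/L. These genes were chosen after their values were seen.

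Of the 52 members under the filter, none exceeded 16 counts in any library. Past the size rule though under the filter were kcnk6 (4, 4, 14 and 11 counts; higher at 0.1 mg/L), kcnk17 at 0.1 mg/L and kcnk5b at 1.0 mg/L (both higher), and kcnh8 (11, 6, 10 and 2 counts; lower at 1.0 mg/L).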
